A study of Homo sapiens with 12 samples.

Results

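The glutaredoxin and thioredoxin genes examined here were chosen by name, and all 9 had a row of their own among the 18417 genes that could be tested. They were the glutaredoxins GLRX, GLRX2, GLRX3 and GLRX5, the thioredoxins TXN and TXN2, their reductases TXNRD1 and TXNRD2, and the thioredoxin-binding protein TXNIP. GLRX5 had another row as well; for such genes the brighter row over the 12 arrays was used. The set was drawn up with the change of GLRX in HEL and that of TXNIP in UKE1 already known. These changes, the differences between the lines that include them and the untreated levels behind them are therefore described without a test.

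Expression was measured on Affymetrix Gene 1.0 ST arrays in UKE1 and HEL, established lines labelled as erythroleukemia cells, both with the JAK2V617F mutation. The 4 groups were UKE1 with 250 nM ITF2357 for 6 h, UKE1 cultured for 6 h without it, HEL with 250 nM ITF2357 for 6 h, and HEL without it, at 3 arrays each. ITF2357, or givinostat, inhibits histone deacetylases, and the design asks how it alters expression in each line. UKE1 medium also held horse serum, hydrocortisone and HEPES, which HEL medium did not, so that line and medium cannot be told apart. The series calls the triplicates independent without saying how, so that a p-value covers no more than the spread among these 3 arrays a group.

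Values are log2 RMA signals, which compare a gene between arrays and not with other genes. Within a group the arrays had correlations of r = 0.994 to 0.996, and none stood apart. All 7 measured erythroid markers were lower in untreated UKE1 than in untreated HEL: HBE1, embryonic epsilon-globin, had 5.19 in UKE1 and 12.95 in HEL, and KLF1, an erythroid factor, 6.84 and 8.66. The summed log2 level of these markers was 43.84 to 44.27 in UKE1 with ITF2357, against 44.07 to 44.48 in untreated UKE1, and 64.14 to 64.98 in HEL with ITF2357, against 66.25 to 66.86 in untreated HEL. All 5 megakaryocyte markers were lower in untreated UKE1 as well. Of all genes, 34.4% were lower in that comparison. Of 3 T-cell markers, CD3D (9.15 in untreated UKE1 and 4.30 in untreated HEL) and CD3E (8.56 and 4.96) were higher in UKE1, and CD2 (5.74 and 6.55) was lower. With the drug, 1 of the 7 erythroid markers fell in UKE1 and 3 fell in HEL. Of the 5 megakaryocyte markers, 4 fell in UKE1 and 3 in HEL, among them GP1BA (-0.74 in UKE1 and -0.92 in HEL, log2). In UKE1 2 of 3 T-cell and 2 of 4 neutrophil and monocyte markers fell, and in HEL 1 and 0. Of 2 measured B-cell markers, 1 was higher in untreated UKE1, and 1 fell in each line with the drug. Of 3 fibroblast markers, 1 was higher in untreated UKE1, and with the drug 1 rose in UKE1 and 0 in HEL. Among all genes, 22.3% fell in UKE1 and 19.9% in HEL. The part of these markers in the results was not tested. Fewer cells of a kind and less RNA per cell cannot be told apart in such samples.

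Thioredoxins and glutaredoxins are small proteins that reduce disulfide bonds in other proteins through a pair of cysteines, or a lone cysteine in the monothiol glutaredoxins. Thioredoxin is recharged by thioredoxin reductase, a selenoprotein that draws on NADPH, whereas glutaredoxins are recharged by glutathione. Monothiol glutaredoxins carry iron-sulfur clusters, which red cell precursors need in quantity for heme synthesis. TXNIP, an arrestin-like protein, binds reduced thioredoxin, blocks it and lowers glucose uptake.

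GLRX, GLRX5 and TXNIP had higher values with ITF2357 than without it on every array of both lines. GLRX was 2.33-fold higher in UKE1 and 6.53-fold higher in HEL, GLRX5 1.52-fold and 1.75-fold, and TXNIP 1.92-fold and 1.24-fold. The other row of GLRX5 gave smaller rises, 0.33 in UKE1 and 0.45 in HEL on the log2 scale. The thioredoxins and their reductases had lower means with the drug in both lines, but which of them passed the test differed: TXN, TXNRD1 and TXNRD2 fell in UKE1, and TXN2 fell in HEL. In HEL, TXNRD1 and TXNRD2 missed the threshold narrowly. Among these genes only TXNRD1 passed a test of the difference between the responses of the lines. GLRX2 and GLRX3 were not called in either line.

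Promoter sequences were listed in RefSeq (GRCh38.p14) for 7 of the 9 genes, from 250 bases before to 50 bases after each start. Those of GLRX, GLRX5 and TXNIP are shown because these genes were higher with the drug in both lines. Letters in capitals mark CCAAT, or ATTGG where the motif lies on the other strand; this is the motif bound by the factor NF-Y. They lie at chr5:95822677-95822976, minus strand, for GLRX, at chr14:95534800-95535099, plus strand, for GLRX5, and at chr1:145996530-145996829, minus strand, for the more upstream of 2 starts of TXNIP.
GLRX: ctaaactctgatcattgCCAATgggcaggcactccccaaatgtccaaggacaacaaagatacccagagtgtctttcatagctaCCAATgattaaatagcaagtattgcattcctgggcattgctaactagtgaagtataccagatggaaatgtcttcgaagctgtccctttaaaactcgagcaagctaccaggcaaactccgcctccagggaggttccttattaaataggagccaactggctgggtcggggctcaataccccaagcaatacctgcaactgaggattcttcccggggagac
GLRX5: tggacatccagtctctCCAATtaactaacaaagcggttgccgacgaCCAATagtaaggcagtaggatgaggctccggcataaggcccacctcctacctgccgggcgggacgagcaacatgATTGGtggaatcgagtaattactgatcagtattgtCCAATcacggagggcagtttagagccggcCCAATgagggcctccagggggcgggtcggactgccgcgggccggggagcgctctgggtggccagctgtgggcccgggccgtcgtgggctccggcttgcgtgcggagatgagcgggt
TXNIP: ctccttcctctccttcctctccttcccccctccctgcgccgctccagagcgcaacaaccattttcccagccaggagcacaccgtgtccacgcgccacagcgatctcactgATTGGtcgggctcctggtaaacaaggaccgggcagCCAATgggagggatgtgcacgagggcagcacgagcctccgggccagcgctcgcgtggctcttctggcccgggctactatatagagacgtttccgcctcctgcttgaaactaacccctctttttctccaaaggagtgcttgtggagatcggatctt

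The CCAAT motif was found 2 times in the GLRX window, 5 times in that of GLRX5 and 2 times in that of TXNIP; the window at the other TXNIP start held 0. Of all 35116 promoters of this length, 34.6% held it at least 1 time on either strand and 10.8% held it at least 2 times. Among the other members, both listed TXNRD1 promoters held it 1 time, and no listed promoter of GLRX2, TXN or TXNRD2 held it. GGGCGG, the core of the GC box, was found 3 times in the TXN window and 3 times in the most upstream TXNRD2 window, 2 times in that of GLRX5, 1 time in the more upstream TXNRD1 window, 2 times in the other, and 2 times in the most downstream GLRX2 window. It was not in those of GLRX and TXNIP, and 45% of all promoters held it. TGACNNNGC, a core of the element that NRF2 binds, was found 2 times in the more upstream TXNRD1 window and 1 time in the other, against 13.3% of all promoters with at least 1. It was found in no other listed window of a member. Both strands were searched, and none of the CCAAT matches overlap. CACGTG, the E-box, was found 1 time in the most downstream GLRX2 window alone, against 7.26% of all promoters. TATAAA, the TATA box, was found 2 times in the TXN window, in overlapping copies, and 1 time in the most downstream TXNRD2 window, against 11.5%. These matches describe the letters in the windows and not binding.

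**Figure D1:**
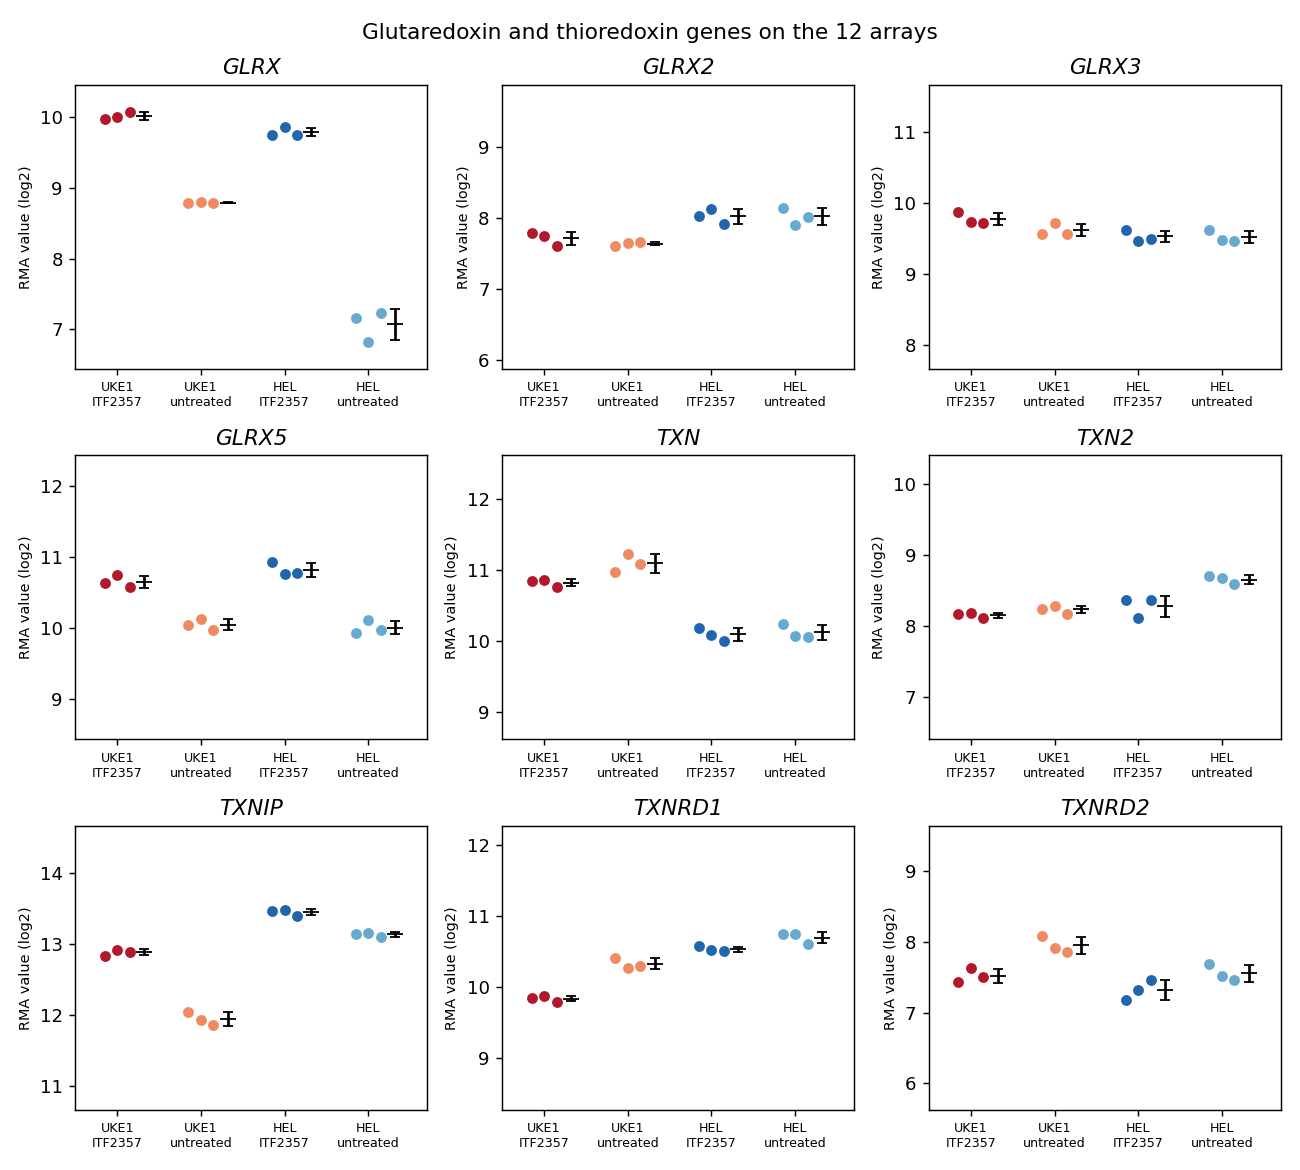
Log2 RMA values (vertical axis, the same span in every panel) of the 9 genes on the 12 arrays, by group (horizontal axis); coloured points are arrays, and the black bar beside them is the mean with its SD (n = 3). GLRX lies between 9.74 and 10.07 with the drug in either line, and between 6.83 and 7.23 in untreated HEL.

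GLRX encodes the cytosolic glutaredoxin that frees proteins from bound glutathione. Its log2 values were 9.96, 9.99 and 10.07 in UKE1 with ITF2357, against 8.78, 8.80 and 8.79 in untreated UKE1. In HEL they were 9.75, 9.85 and 9.74 with ITF2357, against 7.16, 6.83 and 7.23 untreated. No arrays of any pair of groups overlapped, and the groups ran from UKE1 with ITF2357 through HEL with ITF2357 and untreated UKE1 down to untreated HEL. In UKE1 the rise was 1.22 ± 0.089 on the log2 scale (SE), with an adjusted p = 9.11e-08. This p and those below come from limma, fitted to all 18417 genes with 1 mean per group and adjusted by Benjamini-Hochberg; a gene rose or fell where it was under 0.05.

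The change of GLRX in HEL was 2.71 ± 0.089 (log2, SE), the largest increase of any gene in that line, while in UKE1 its increase ranked 215 of 18417. Without replicate 2 of untreated HEL, its lowest array, the HEL change was 2.58. Untreated UKE1 exceeded untreated HEL by 1.71 ± 0.089 (log2, SE). With the drug the same gap, UKE1 minus HEL, was 0.23, and the arrays of the lines still did not overlap. The change in UKE1 minus that in HEL was -1.49 on the log2 scale (95% interval -1.76 to -1.22), a description and not a test; it was -1.36 without that HEL array and -1.35 after quantile normalization.

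GLRX2, a glutaredoxin of mitochondria, was not called in either drug comparison. Its log2 values were 7.78, 7.75 and 7.60 in UKE1 with ITF2357, against 7.61, 7.65 and 7.65 in untreated UKE1. In HEL they were 8.02, 8.12 and 7.92 with ITF2357, against 8.14, 7.90 and 8.02 untreated. Treated and untreated arrays overlapped in each line. The change was 0.08 in UKE1 (95% interval -0.09 to 0.24, adjusted p = 0.480) and 0.0023 in HEL (-0.16 to 0.17, adjusted p = 0.987), both on the log2 scale. Between the untreated lines it was lower in UKE1 on every array, by a log2 difference of -0.38 ± 0.077 (SE, adjusted p = 0.000556).

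GLRX3, a cytosolic monothiol glutaredoxin that delivers iron-sulfur clusters, had log2 values of 9.88, 9.74 and 9.72 in UKE1 with ITF2357, against 9.57, 9.72 and 9.57 in untreated UKE1. In HEL it had 9.63, 9.48 and 9.50 with ITF2357, against 9.62, 9.49 and 9.46 untreated. The UKE1 arrays were separate by a narrow margin and the HEL arrays overlapped. Neither change was called, at 0.16 in UKE1 (95% interval 0.0014 to 0.32, adjusted p = 0.0974) and 0.01 in HEL (-0.15 to 0.17, adjusted p = 0.930), on the log2 scale. The UKE1 change passed the threshold after quantile normalization (adjusted p = 0.0346) and with an intensity trend in the variance (adjusted p = 0.0415). The untreated lines did not differ beyond the spread of their arrays (0.10, adjusted p = 0.257), except after quantile normalization (0.19, adjusted p = 0.0324).

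GLRX5 is the mitochondrial monothiol glutaredoxin that passes on newly built iron-sulfur clusters; in people its loss leads to a sideroblastic anemia. Its log2 values were 10.64, 10.75 and 10.58 in UKE1 with ITF2357, against 10.05, 10.13 and 9.98 in untreated UKE1. In HEL they were 10.93, 10.76 and 10.77 with ITF2357, against 9.94, 10.11 and 9.98 untreated. All treated arrays lay above all untreated ones, while the untreated lines overlapped. The gene rose by 0.60 ± 0.075 in UKE1 (adjusted p = 1.29e-05) and by 0.81 ± 0.075 in HEL (adjusted p = 8.66e-07; log2, SE). The difference between these responses was -0.21 (95% interval -0.43 to 0.02, adjusted p = 0.185). The gene's other row gave smaller changes of 0.33 in UKE1 and 0.45 in HEL, both past the threshold, and with that row untreated UKE1 lay above untreated HEL by 0.22 (adjusted p = 0.0127), against 0.04 (adjusted p = 0.652) with the row used.

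TXN encodes cytosolic thioredoxin. Its log2 values were 10.85, 10.86 and 10.77 in UKE1 with ITF2357, against 10.97, 11.23 and 11.09 in untreated UKE1. In HEL they were 10.19, 10.09 and 10.01 with ITF2357, against 10.24, 10.07 and 10.06 untreated. The UKE1 groups were separate and the HEL groups overlapped. TXN fell in UKE1 by 0.27 on the log2 scale (SE 0.079, adjusted p = 0.0124), a call that was lost without replicate 2 of untreated UKE1 (-0.20, adjusted p = 0.0660). In HEL the change was -0.03 (95% interval -0.20 to 0.14, adjusted p = 0.803), and the difference between responses was not called (-0.24, 95% interval -0.48 to 0.0020, adjusted p = 0.146). Untreated UKE1 had 1.96-fold more TXN signal than untreated HEL (adjusted p = 7.45e-08).

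TXN2, the thioredoxin of mitochondria, had log2 values of 8.17, 8.18 and 8.11 in UKE1 with ITF2357, against 8.24, 8.28 and 8.17 in untreated UKE1. In HEL it had 8.37, 8.11 and 8.36 with ITF2357, against 8.70, 8.68 and 8.59 untreated. Here the UKE1 groups overlapped and the HEL groups did not. TXN2 fell in HEL by 0.38 on the log2 scale (SE 0.074, adjusted p = 0.000801), while the UKE1 change was -0.08 (95% interval -0.24 to 0.08, adjusted p = 0.439). The difference between responses was 0.30 ± 0.10 (SE) and missed the threshold (adjusted p = 0.0549); it passed in 6 of 19 alternative settings, with an adjusted p between 0.0123 and 0.114. Untreated UKE1 was lower than untreated HEL, with a log2 difference of -0.42 (adjusted p = 0.000167).

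TXNRD1, the cytosolic thioredoxin reductase, had log2 values of 9.84, 9.87 and 9.79 in UKE1 with ITF2357, against 10.41, 10.27 and 10.30 in untreated UKE1. In HEL it had 10.57, 10.52 and 10.51 with ITF2357, against 10.74, 10.74 and 10.60 untreated. Treated arrays lay below untreated ones in both lines, by a wide margin in UKE1 and a narrow margin in HEL. TXNRD1 fell in UKE1 by 0.50 on the log2 scale (SE 0.063, adjusted p = 1.63e-05). In HEL the change was -0.16 ± 0.063 (SE) with an adjusted p = 0.0520, and it passed the threshold in 6 of 20 alternative settings (adjusted p between 0.00935 and 0.154). The response differed between the lines by -0.33 ± 0.089 (UKE1 minus HEL, SE, adjusted p = 0.0149), and it passed in all 19 alternative settings tried. The gene was lower in untreated UKE1 than in untreated HEL as well (-0.37 ± 0.063, SE, adjusted p = 0.000137), a comparison that shares its arrays with the responses.

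TXNRD2, the mitochondrial reductase, had log2 values of 7.43, 7.63 and 7.51 in UKE1 with ITF2357, against 8.08, 7.91 and 7.85 in untreated UKE1. In HEL it had 7.18, 7.32 and 7.46 with ITF2357, against 7.68, 7.52 and 7.46 untreated. The UKE1 groups were separate, and the HEL groups met at 7.46. TXNRD2 fell in UKE1 by 0.43 on the log2 scale (SE 0.090, adjusted p = 0.00135). In HEL the change was -0.23 ± 0.090 (SE, adjusted p = 0.0541) and passed in 7 of 20 alternative settings, and the difference between responses was not called (-0.20, 95% interval -0.47 to 0.08, adjusted p = 0.309). Untreated UKE1 was above untreated HEL by 0.40 ± 0.090 (SE, adjusted p = 0.00148).

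TXNIP, the inhibitor of thioredoxin, had log2 values of 12.83, 12.92 and 12.88 in UKE1 with ITF2357, against 12.04, 11.92 and 11.85 in untreated UKE1. In HEL it had 13.47, 13.47 and 13.39 with ITF2357, against 13.14, 13.16 and 13.10 untreated. No groups overlapped, and both HEL groups lay above both UKE1 groups. TXNIP rose in HEL by 0.31 ± 0.062 (log2, SE, adjusted p = 0.000899). The UKE1 change, described without a test, was 0.94 ± 0.062 (log2, SE), larger than that in HEL by 0.63 (95% interval 0.44 to 0.82). Untreated UKE1 minus untreated HEL was -1.20, or -0.95 after quantile normalization, and with the drug the gap, UKE1 minus HEL, was -0.57.

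**Figure D2:**
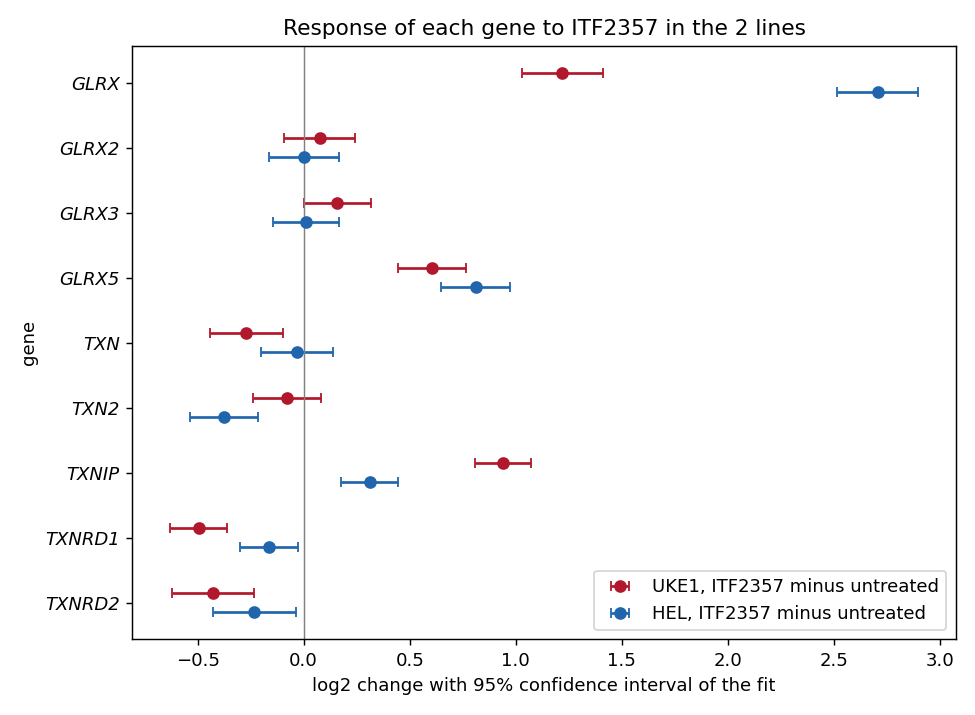
Log2 change with ITF2357 (horizontal axis) of each gene (vertical axis) in UKE1 (red) and HEL (blue); bars are 95% confidence intervals of the fit over 3 treated and 3 untreated arrays a line. GLRX, GLRX5 and TXNIP lie right of 0 in both lines, at 1.22 and 2.71, 0.60 and 0.81, and 0.94 and 0.31.

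Counted together, 2 of the 8 genes tested in UKE1 rose (GLRX and GLRX5) and 3 fell (TXN, TXNRD1 and TXNRD2). Of all genes, 44.3% changed in that line, 22% upwards and 22.3% downwards. In HEL, 2 of 8 rose (GLRX5 and TXNIP) and 1 fell (TXN2), where 42.4% of all genes changed, 22.6% upwards and 19.9% downwards. With TXNRD1 and TXNRD2, which missed the threshold narrowly, the HEL count was 5 after quantile normalization, after median centring, without dim genes and with a variance trend. These counts are not read as particular to the family. By position alone, arrays with and without the drug were fully separate for 7 of the 9 genes in UKE1, against 53.9% of all genes, and for 5 of the 9 in HEL, against 49% of all genes. The counts out of 9 include TXNIP in UKE1 and GLRX in HEL, whose changes were known before the set was drawn up. The median absolute log2 change was 0.35 for the 8 genes in UKE1, against 0.18 over all genes, and 0.20 for the 8 genes in HEL, against 0.17.

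For the difference between responses, 1 of 7 genes tested was called, TXNRD1, against 23.9% of all genes, 10.1% with the higher change in UKE1 and 13.8% with the lower. This balance moved with the scaling: 42.2% of the genes called had the higher change in UKE1 on the deposited scale, 49.9% with quantile-normalized arrays and 51.4% with arrays centred on their medians. Of the genes called in HEL, 53.2% rose on the deposited scale, 49.4% with quantile-normalized and 44% with centred arrays. Under quantile normalization, median centring, the filter on dim genes or the variance trend, TXN2 was called too. Between the untreated lines 5 of 7 were called, TXN and TXNRD2 higher and GLRX2, TXN2 and TXNRD1 lower in UKE1, against 67.7% of all genes, 33.3% higher and 34.4% lower. The arrays of the lines did not overlap for 7 of the 9 genes untreated, against 69.4% of all genes, and for 7 of the 9 with the drug, against 72.3%. Both counts out of 9 include GLRX and TXNIP, which were not tested between the lines. Neither compartment differed in a single direction: of the cytosolic genes TXN was higher and TXNRD1 lower in untreated UKE1, and of the mitochondrial genes TXNRD2 was higher and TXN2 lower.

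**Figure D3:**
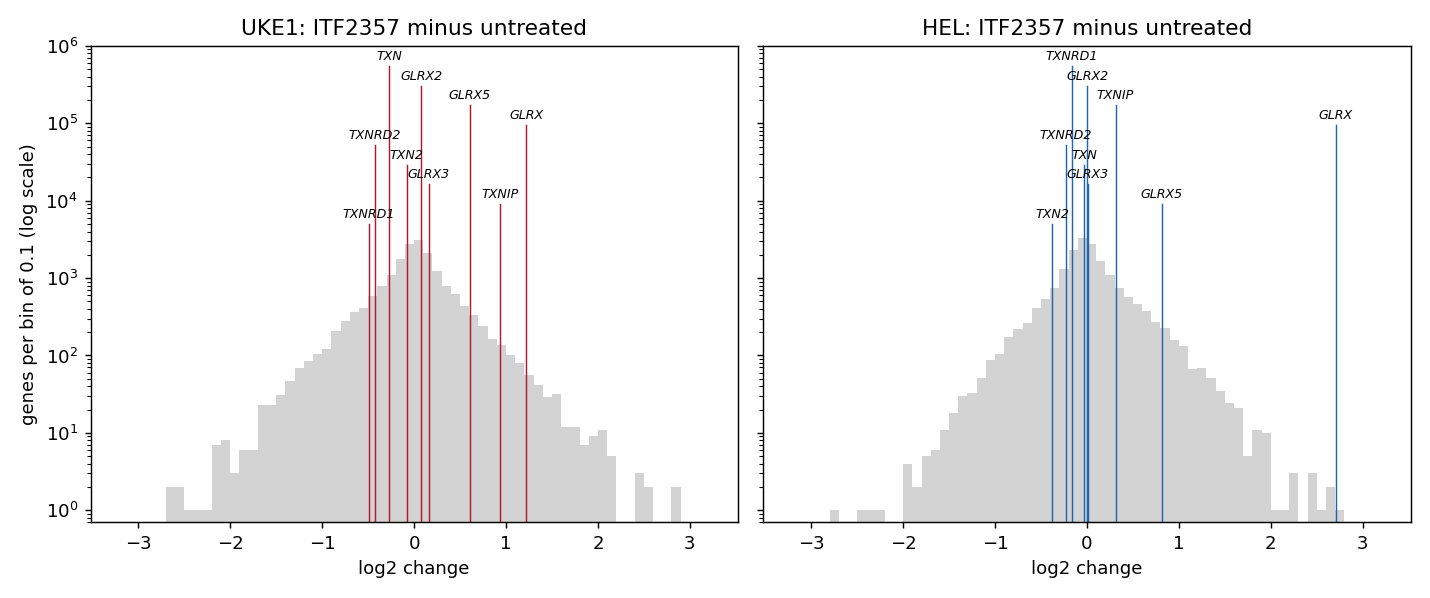
Histogram of the log2 change with ITF2357 over all 18417 genes in UKE1 (left) and HEL (right), with genes per bin of 0.1 on a log axis; coloured lines mark the 9 genes, and line height has no meaning. In HEL, GLRX stands at 2.71 at the right edge of the distribution and the other members between -0.38 and 0.81.

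Genes that share a pathway with the family were taken from 8 lists, whose counts stand beside the 44.3% of all genes that changed in UKE1 and the 42.4% in HEL; nothing particular to a list is read from them. Peroxiredoxins remove peroxides. Most of them, though not PRDX6, are recharged by thioredoxin, and sulfiredoxin (SRXN1) restores such peroxiredoxins after over-oxidation. Of 6 measured, 1 rose and 2 fell in UKE1 and 4 rose and 2 fell in HEL, with a median log2 change of 0.08 in UKE1 and 0.34 in HEL, against 0.01 and -0.01 over all genes. The count that rose in UKE1 was 2 in 4 of 20 alternative settings. SRXN1 rose by 2.11 ± 0.061 in UKE1 (adjusted p = 6.76e-11) and by 0.41 ± 0.061 in HEL (adjusted p = 6.47e-05), and this difference was called (1.70, adjusted p = 6.61e-08). PRDX3, the peroxiredoxin of mitochondria, fell in both lines (-0.63 in UKE1 and -0.35 in HEL, log2), and PRDX4 of the secretory pathway also fell (-0.51 and -0.19; the HEL call was lost in 8 of 20 alternative settings). PRDX6 rose in HEL (0.43) but was not called in UKE1 (0.04, adjusted p = 0.577).

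Of 17 measured thioredoxin-like and protein disulfide isomerase genes, 5 rose and 5 fell in UKE1, and 3 rose and 7 fell in HEL (median log2 change -0.03 in UKE1 and -0.06 in HEL). TXNDC16 rose by 0.92 in UKE1 and 1.05 in HEL, and TXNDC12, of the endoplasmic reticulum, by 0.55 and 0.49. TXNDC15 fell (-0.73 in UKE1 and -0.31 in HEL), as did TMX4, a membrane-bound relative (-0.66 and -0.21; the HEL call was lost in 7 of 20 settings). All these values are log2 changes.

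Thioredoxin also serves ribonucleotide reductase, methionine sulfoxide reductases, the DNA repair and redox factor APEX1 and the kinase MAP3K5, which it holds inactive. Of these 8 genes, 1 rose and 3 fell in UKE1, and 2 rose and 3 fell in HEL (median log2 change -0.10 in UKE1 and -0.11 in HEL). MSRA, a methionine sulfoxide reductase, fell in both lines (-0.51 in UKE1 and -0.45 in HEL). MAP3K5 fell in UKE1 (-0.24, adjusted p = 0.00395) and was not called in HEL (-0.08, adjusted p = 0.308). RRM2, the small subunit of ribonucleotide reductase, fell in HEL (-0.35, adjusted p = 0.000323) and was not called in UKE1 (-0.14, adjusted p = 0.0981). MSRB2 rose in HEL (0.24) with a change of -0.07 in UKE1 (adjusted p = 0.413), and its difference was called (-0.31, adjusted p = 0.0145), except after quantile normalization (-0.21). The lone gene of this list to rise in UKE1 was RRM2B (0.26), and it was not called without replicate 3 of treated or of untreated UKE1.

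Glutathione, which recharges glutaredoxins, is made by GCLC with its partner GCLM and by GSS. Of 17 measured genes of its synthesis and use, 4 rose and 8 fell in UKE1, and 4 rose and 4 fell in HEL (median log2 change -0.09 in UKE1 and 0.02 in HEL). The 8 that fell in UKE1 became 5 without replicate 2 or 3 of untreated UKE1 and 4 without replicate 1 of treated UKE1, and the 4 that rose in HEL became 2 in 6 of 20 settings. GCLC rose by 0.70 ± 0.064 (SE) in UKE1, with 0.17 in HEL, where its call was lost in 12 of 20 settings; the difference was called (0.53, adjusted p = 0.000804). GSS fell in UKE1 by 0.68 on the log2 scale, with -0.12 in HEL (adjusted p = 0.111), and that difference was called too (-0.56, adjusted p = 0.00028). The microsomal transferase MGST3 rose in both lines (0.74 in UKE1 and 0.93 in HEL), and its relative MGST2 fell in both (-0.96 and -0.25).

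NRF2, encoded by NFE2L2, induces many thiol genes, TXNRD1 and SRXN1 among them, and KEAP1 marks it for degradation. Of 13 measured genes of this list, 2 rose and 5 fell in UKE1, and 1 rose and 7 fell in HEL (median log2 change 0.0043 in UKE1 and -0.25 in HEL). KEAP1 fell by 0.95 in UKE1 (adjusted p = 1.02e-07) and by 1.15 in HEL (adjusted p = 2.51e-08), and MAFG, a partner of NRF2, fell by 0.77 and 0.51, all on the log2 scale. HMOX1, heme oxygenase-1, rose in UKE1 (0.41, adjusted p = 0.00046) and fell in HEL (-1.24, adjusted p = 2.46e-08); the difference was 1.65 (adjusted p = 3.32e-07). The quinone reductase NQO1 fell in HEL (-1.19), against -0.26 in UKE1, a call lost in 11 of 20 settings, and its difference was 0.93 (adjusted p = 0.000342). The ferritin light chain FTL was the lone gene of the list to rise in HEL (0.15, adjusted p = 0.0488), and that count was 0 in 15 of 20 settings.

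**Figure D4:**
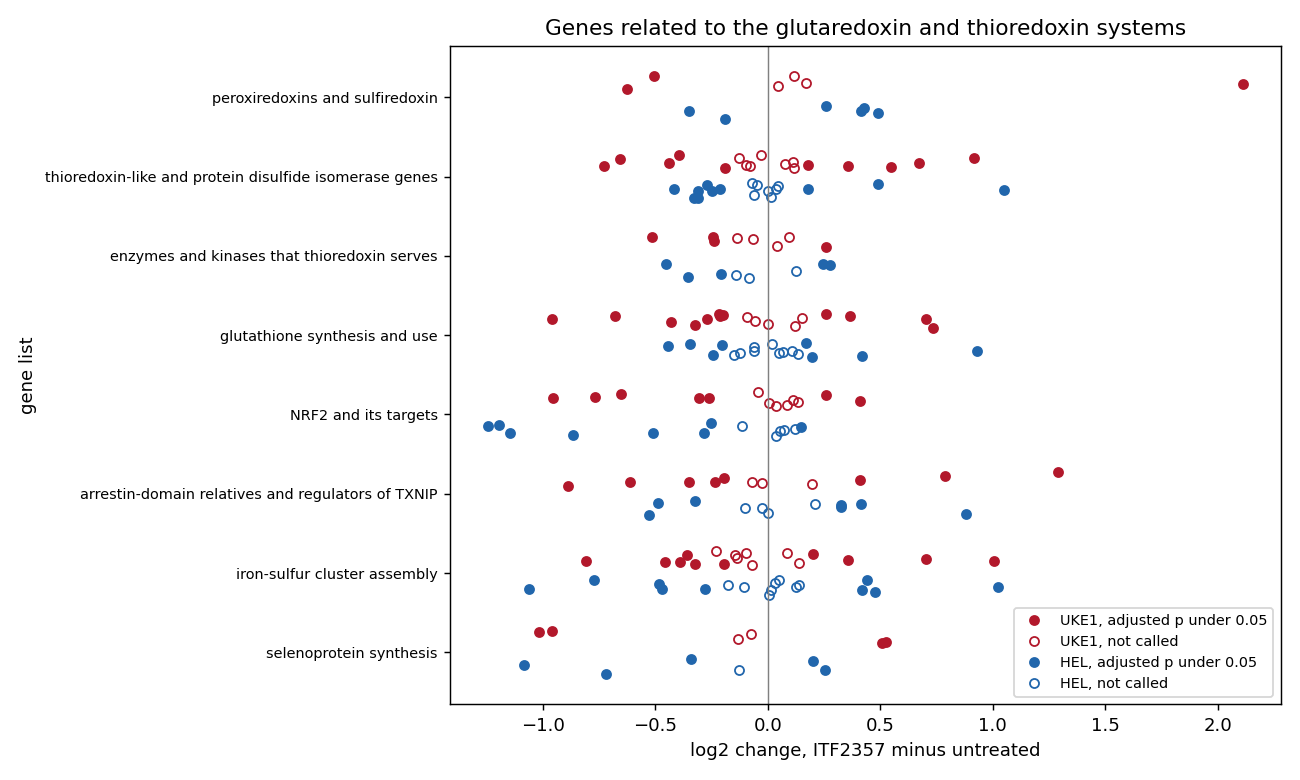
Log2 change with ITF2357 (horizontal axis) of the measured members of 8 related gene lists (vertical axis) in UKE1 (red, upper row of each list) and HEL (blue, lower row); filled points passed the adjusted p threshold of 0.05, and vertical scatter within a row has no meaning. SRXN1 in UKE1 lies farthest to the right at 2.11, and HMOX1 in HEL farthest to the left at -1.24.

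TXNIP belongs to the alpha-arrestins, and its gene is known to be switched on by the glucose-sensing factors MLXIP and MLXIPL with their partner MLX. Of 11 measured relatives and regulators, 3 rose and 5 fell in UKE1, and 4 rose and 3 fell in HEL (median log2 change -0.07 in UKE1 and -0.00031 in HEL). The 5 that fell in UKE1 became 3 without replicate 1 of treated UKE1. ARRDC1 rose (0.79 in UKE1 and 0.41 in HEL) and ARRDC2 fell (-0.61 and -0.49). The beta-arrestin ARRB1 fell more in UKE1 (-0.89) than in HEL (-0.32; difference -0.56, adjusted p = 0.000448). SLC2A3, a glucose transporter, rose by 1.29 in UKE1 and 0.88 in HEL (difference 0.41, adjusted p = 0.0177). ARRDC4, the close relative of TXNIP, was picked out after its values were seen and is described without a test. Its log2 change was -0.35 in UKE1 and 0.33 in HEL.

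Iron-sulfur cluster assembly, the pathway of GLRX5 and GLRX3, had 17 measured genes, of which 4 rose and 6 fell in UKE1 and 4 rose and 5 fell in HEL (median log2 change -0.14 in UKE1 and 0.01 in HEL). The scaffold ISCU rose (0.71 in UKE1 and 0.44 in HEL), and so did ACO1, the cluster-bearing iron sensor (1.00 and 1.02). NUBP1, of the cytosolic assembly route, fell (-0.81 and -1.06), as did the chaperone HSPA9 (-0.19 and -0.47; its UKE1 call was lost after quantile normalization, at -0.12). The genes of this pathway that changed beside GLRX5 thus did so in both directions.

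Thioredoxin reductases need selenocysteine. Of 6 measured genes listed under selenoprotein synthesis, 2 rose and 2 fell in UKE1, and 2 rose and 3 fell in HEL (median log2 change -0.10 in UKE1 and -0.24 in HEL). PSTK, a kinase that prepares the selenocysteine tRNA, fell by 1.02 in UKE1 and 1.08 in HEL, and SEPHS1 by 0.96 and 0.72, on the log2 scale. Whether SEPHS1 takes part in this synthesis was not tested. SEPHS2, the selenophosphate synthetase, rose (0.53 and 0.26). EEFSEC, the elongation factor for selenocysteine, rose in UKE1 (0.51), and its HEL value of 0.20 lost its call in 15 of 20 settings.

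Among 7085 other genes whose log2 values spanned at least 1, those closest to GLRX over the 12 arrays were LUZP1 (Pearson's r = 0.990), ZDHHC3 (0.989), KIF1B (0.988), SFXN3 (0.988) and PREX1 (0.987). Their log2 changes were 0.45 to 0.59 in UKE1 and 0.9992 to 1.25 in HEL, smaller than those of GLRX in either line. Closest to TXNIP were STK17A (r = 0.997), HK1 (0.994), CPEB4 (0.994), ETS1 (0.992) and WIPI1 (0.992), with log2 changes of 0.63 to 1.90 in UKE1 and 0.25 to 0.99 in HEL. The 12 points fall into 4 groups of 2 lines, so these correlations mainly describe how the group means are spaced and carry no test.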

How the data were processed

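Per the submitters' processing notes, the authors made the deposited log2 values with Affymetrix Expression Console and RMA; their versions were not found in the labels. The log2 scale was read from the range of the values (1.26 to 14.36), since no label states the base. No detection flags came with the table, so absence was not called; precision is limited by the number of arrays.

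Of 33297 rows, 19460 had 1 gene symbol in GEO's platform annotation, 1754 had several and 12083 had none; only the first were tested, with the highest-mean row per symbol, which left 18417 genes. IDs of 18389 genes were found in the RefSeq table of GRCh38.p14, with no symbol changed. Rows with several symbols were not analysed here.

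One mean per group was fitted over all 12 arrays (limma 3.58.1, R 4.3.3, lmFit and eBayes, 8 residual degrees of freedom), with two-sided tests and Benjamini-Hochberg adjustment over all genes. The fit was run on simulated data for the HEL drug comparison alone, with far fewer changed genes than were called in these data. That run does not check the other comparisons. Named genes were the 9 members; up to 4 genes of each related list with the smallest adjusted p in either drug comparison, plus lone genes that moved against their list; and the 5 genes most correlated with GLRX and with TXNIP. ARRDC4, ME1 and TALDO1 were added after their values were seen. Members and lists were chosen with earlier results of these data known. The alternatives were other scalings, a filter on dim genes, all rows, other variance models, separate fits, a replicate block, another row and leaving out each array.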

Additional observations from a re-analysis of the deposited data

Results flagged for a closer look

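The response of TXNRD1 differed between the lines by a test of the difference itself: UKE1 minus HEL was -0.33 ± 0.089 on the log2 scale (SE, adjusted p = 0.0149, limma). It was the only 1 of the 7 members tested for this to pass as the values were deposited. Of all genes, 23.9% passed, 13.8% with the lower change in UKE1. The change was -0.50 in UKE1 and -0.16 in HEL, with treated arrays below untreated ones in 3 of 3 cases in each line. The HEL change was not called (adjusted p = 0.0520, limma). Arrays were fully separate, in either direction, for 53.9% of all genes in UKE1 and 49% in HEL.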

How the results depend on the processing

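Of 715 values of the 9 genes under alternative settings, 676 kept their direction and their side of the threshold, or moved by less than the spread between replicates where no test was made. The rest were 1 lost call (TXN in UKE1), 23 gained calls, 5 untested values of GLRX and TXNIP that moved by more than the spread, and 10 reversals. Some settings cannot move a log2 change, such as another variance model or leaving out an array of a group not compared. For values without a test the outcome was then fixed beforehand, so 676 of 715 overstates how far the values were tried. The reversals all concerned uncalled changes in HEL near 0. GLRX2 was -0.0457 after quantile normalization and -0.0497 after median centring, and GLRX3 was -0.0412 after median centring. Leaving out single arrays moved GLRX2 between -0.0568 and 0.063, GLRX3 between -0.0355 and 0.0599, and TXN between -0.0774 and 0.0286. The cause was not tested.

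The number of members called in HEL was 3 as reported and 5 after quantile normalization, after median centring, among genes with a mean log2 value of at least 6 and with an intensity trend; without single arrays it was 3 to 5, with 5 without replicate 3 of untreated HEL or replicate 1 of untreated UKE1. For the difference of the responses, it was 1 as reported and 2 under the same 4 settings, and 1 to 2 without single arrays, with 2 without replicate 1 or 3 of treated HEL. In UKE1 it was 5, with 6 after quantile normalization and with the intensity trend, and 4 to 5 without single arrays. Between the untreated lines it was 5, with 6 after quantile normalization and with the next-highest row of GLRX5, and 5 without any single array. Over all rows of the table, 9253 rows were higher and 9894 lower in untreated UKE1, against 6132 and 6339 genes, since more rows were tested. No separate fit gives the difference of the responses, so that setting has no value for it.

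Deviations of same-numbered treated and untreated arrays had r between -0.0877 and 0.0645. In HEL not every array correlated best with its own number. In UKE1 every one did, at r of 0.0302 to 0.0348, against -0.0310 to -0.00278 for arrays of other numbers. Deviations within a group of 3 arrays are tied to each other, so these values cannot show whether arrays were paired. With the replicate block, members called were 5 in UKE1, 3 in HEL, 1 for the difference and 5 between the untreated lines, as without it; 4024 genes rose and 3566 fell in HEL, against 4157 and 3659. Of 1264 counts over the related lists, 98 moved by over 1.5 times.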

Other observations

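Between the untreated lines, of 13 measured genes of the NRF2 list, 2 were higher and 9 lower in UKE1 than in HEL, with a median log2 difference of -0.72, against -0.00047 over all genes. The 2 higher genes were ME1 (4.42, log2), the largest difference of the list, and TALDO1 (0.44). Both were named after their values were seen, so no p-value is given for them. Among the 9 lower genes were HMOX1 (-3.61, adjusted p = 3.04e-14, limma) and NQO1 (-1.91, adjusted p = 6.23e-10). SRXN1 of the peroxiredoxin list was lower in UKE1 too (-3.95, adjusted p = 1.56e-15). Of 17 glutathione genes, 3 were higher and 9 lower in UKE1, and of 6 peroxiredoxin genes, 4 were higher and 2 lower. Of 11 relatives and regulators of TXNIP, 2 were higher and 7 lower, with a median log2 difference of -0.72 as well. The low median is thus not particular to the NRF2 list. Of 17 thioredoxin-like and protein disulfide isomerase genes, 5 were higher and 9 lower, and of 17 iron-sulfur genes, 6 and 9. Of 8 genes that thioredoxin serves, 3 were higher and 3 lower, and of 6 selenoprotein genes, 3 and 2. The share of all genes called in this comparison was 67.7%, 33.3% higher and 34.4% lower, and the drug comparisons share its arrays.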
